A study of Mus musculus with 2 samples.

Results

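Tetraspanins are small proteins that cross the membrane several times and gather integrins, proteases, immune receptors and one another into membrane domains. The 7 tetraspanin genes Cd9, Cd37, Cd53, Cd63, Cd81, Cd82 and Cd151 were chosen by symbol from 31053 gene rows, and all 7 were measured. They were followed in cells sorted as CD45+CD11b+CD3-F4/80+ from the ischemic brain of Foxp3Egfp mice aged 6 to 8 weeks, mice whose Foxp3 locus, active in regulatory T cells, also drives EGFP. The study had 1 group with 2 single-cell libraries, here called replicate 1 and replicate 2, and uninjured brain was not analysed here. The labels do not say that the libraries came from separate animals. The p-values therefore measure how differences between classes or clusters vary between these 2 libraries, a spread that may be technical.

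Cd9 and Cd81 are close relatives that bind integrins and immunoglobulin-family partners on the cell surface, and mouse macrophages that lack both are known to fuse more readily. Cd63 sits mainly in late endosomes and lysosomes and enters exosomes. Cd37 and Cd53 are largely restricted to leukocytes, Cd82 was first known as a metastasis suppressor, and Cd151 binds laminin-binding integrins. Microglia are the resident macrophages of the brain, while monocytes enter the ischemic tissue from blood and mature there into macrophages.

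The labels call the cells macrophages, but marker genes split the 13624 and 7409 cells kept (replicate 1 and replicate 2) into several classes. Macrophage-like cells numbered 3375 and 199, monocyte-like cells 1523 and 832, neutrophil-like cells 723 and 599, cycling cells 564 and 186, dendritic-like cells 237 and 205, T or NK-like cells 142 and 97, and microglia-like cells 6090 and 4788. Of 23 clusters, 15 were named and 8 were not. The libraries held 101893367 and 62850768 UMIs (unique molecular identifiers, 1 per captured transcript), and 31 cell barcodes occurred in both, 0.206% of the cells in replicate 1 and 0.392% in replicate 2. Cd3e, a T cell gene that the sort gated against, reached 182 and 279 CPM in the T or NK-like cells. A level is given in CPM, a gene's UMIs scaled by all UMIs summed over the cells of a class in 1 library. Free RNA, meaning RNA outside cells, was read from barcodes with fewer than 100 UMIs.

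The promoters of 3 members are shown because these genes behaved differently: Cd81 had the largest difference between macrophage-like and microglia-like cells, Cd63 was the member that was higher in macrophage-like cells, and Cd53 was called in no pair of classes. They come from RefSeq (GRCm38.p6), are 300 bases long around each start and are printed in the direction of the gene, with motif matches in capitals. The motifs searched on both strands were the GC box (GGGCGG), a PU.1-type core (GAGGAA) and a TATA box (TATAAA). All 7 members were matched, with 11 entries, and the first entry of each gene is shown. In GRCm38 Cd81 lies at chr7:143052739-143067934 (plus strand), Cd63 at chr10:128900989-128912822 (plus strand) and Cd53 at chr3:106759921-106790149 (minus strand), all protein-coding. The Cd81 and Cd53 windows cover the start of these spans. The Cd63 window lies inside its span, downstream of the span's start, so its motifs are those of an internal RefSeq start.
Cd81, chr7:143052500-143052799, plus strand: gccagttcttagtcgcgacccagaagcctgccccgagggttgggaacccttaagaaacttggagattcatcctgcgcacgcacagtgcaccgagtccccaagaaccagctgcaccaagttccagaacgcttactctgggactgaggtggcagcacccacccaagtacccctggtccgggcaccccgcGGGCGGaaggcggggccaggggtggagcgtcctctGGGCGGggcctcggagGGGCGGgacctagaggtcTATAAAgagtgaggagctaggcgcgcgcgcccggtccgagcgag
Cd63, chr10:128909095-128909394, plus strand: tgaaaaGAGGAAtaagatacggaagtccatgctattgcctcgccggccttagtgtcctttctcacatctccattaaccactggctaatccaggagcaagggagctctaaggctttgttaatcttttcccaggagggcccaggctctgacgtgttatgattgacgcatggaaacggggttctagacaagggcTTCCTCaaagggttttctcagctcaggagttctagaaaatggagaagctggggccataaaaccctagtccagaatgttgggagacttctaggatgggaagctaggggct
Cd53, chr3:106790100-106790399, minus strand: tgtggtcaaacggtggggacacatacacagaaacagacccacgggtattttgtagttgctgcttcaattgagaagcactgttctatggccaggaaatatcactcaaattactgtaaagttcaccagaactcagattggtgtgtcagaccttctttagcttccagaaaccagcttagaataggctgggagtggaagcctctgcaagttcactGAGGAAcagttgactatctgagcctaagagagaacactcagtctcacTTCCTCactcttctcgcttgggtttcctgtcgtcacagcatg
The Cd81 window held 3 GC boxes and 1 TATA box and no PU.1-type core. The Cd63 and Cd53 windows held 2 PU.1-type cores each, one on either strand, and neither of the other motifs. Of 32851 RefSeq promoter windows, 35.7% held a GC box, 28.3% a PU.1-type core and 13.6% a TATA box. A match is a string of letters and not a measured binding site.

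Macrophage-like cells carried little Cd81 RNA and more Cd63 RNA than microglia-like cells of the same library. Cd81 had 58.4 and 165 CPM in macrophage-like cells (replicate 1 and replicate 2), against 2201 and 3028 CPM in microglia-like cells. Both macrophage-like values lay below both microglia-like values. The fitted log2 fold change was -4.20 ± 0.38 (SE), adjusted p = 3.43e-06 (edgeR quasi-likelihood test with Benjamini-Hochberg adjustment over 10213 genes). This was the largest difference among the 7 members. Cd63 had 2455 and 1855 CPM in macrophage-like cells, against 1553 and 1249.7 CPM in microglia-like cells. Both macrophage-like values lay above both microglia-like values, with a log2 fold change of 1.06 ± 0.17 and an adjusted p of 0.000326. The share of all genes whose values separate in this way was not counted.

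Of the other surface partners of integrins, Cd9 had 626 and 1017 CPM in macrophage-like cells, against 1749 and 2303 CPM in microglia-like cells, a log2 fold change of -0.89 ± 0.19 (adjusted p = 0.00212). Cd82 had 21.6 and 29.6 CPM in macrophage-like cells, against 64.9 and 88.3 CPM in microglia-like cells (log2 fold change -1.13 ± 0.20, adjusted p = 0.000629). For both genes every macrophage-like value lay below every microglia-like value, a separation that was not counted over all genes. Cd151 had 21.8 and 25.2 CPM in macrophage-like cells, against 29.8 and 43.6 CPM in microglia-like cells, and did not pass the test (log2 fold change -0.16 ± 0.18, adjusted p = 0.537).

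Of the leukocyte members, Cd37 had 139 and 149 CPM in macrophage-like cells, against 295 and 378 CPM in microglia-like cells (log2 fold change -0.77 ± 0.22, adjusted p = 0.0129). Cd53 had 324 and 236 CPM in macrophage-like cells, against 422 and 437 CPM in microglia-like cells, and did not pass the test (log2 fold change -0.17 ± 0.19, adjusted p = 0.531). In all, 4 of 7 members were lower and 1 was higher in macrophage-like cells. Over all genes tested, 19.3% were called lower and 20.9% higher, and 40.2% were called in either direction. The members' median log2 fold change was -0.77, against 0.01 over all genes.

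The folds depend on scaling. They use TMM, which corrects for a few abundant genes that take a large share of a class's UMIs, while CPM values do not. Scaling to summed UMIs alone moved the median of all genes by -0.47 and gave 888 higher and 4110 lower calls, against 2137 and 1968 with TMM. Under it Cd63 was still higher (log2 fold change 0.61, adjusted p = 0.0105), and Cd53 (-0.62, adjusted p = 0.0154) and Cd151 (-0.62, adjusted p = 0.0203) were also called lower. The macrophage-like class of replicate 2 rests on 199 cells.

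**Figure D1:**
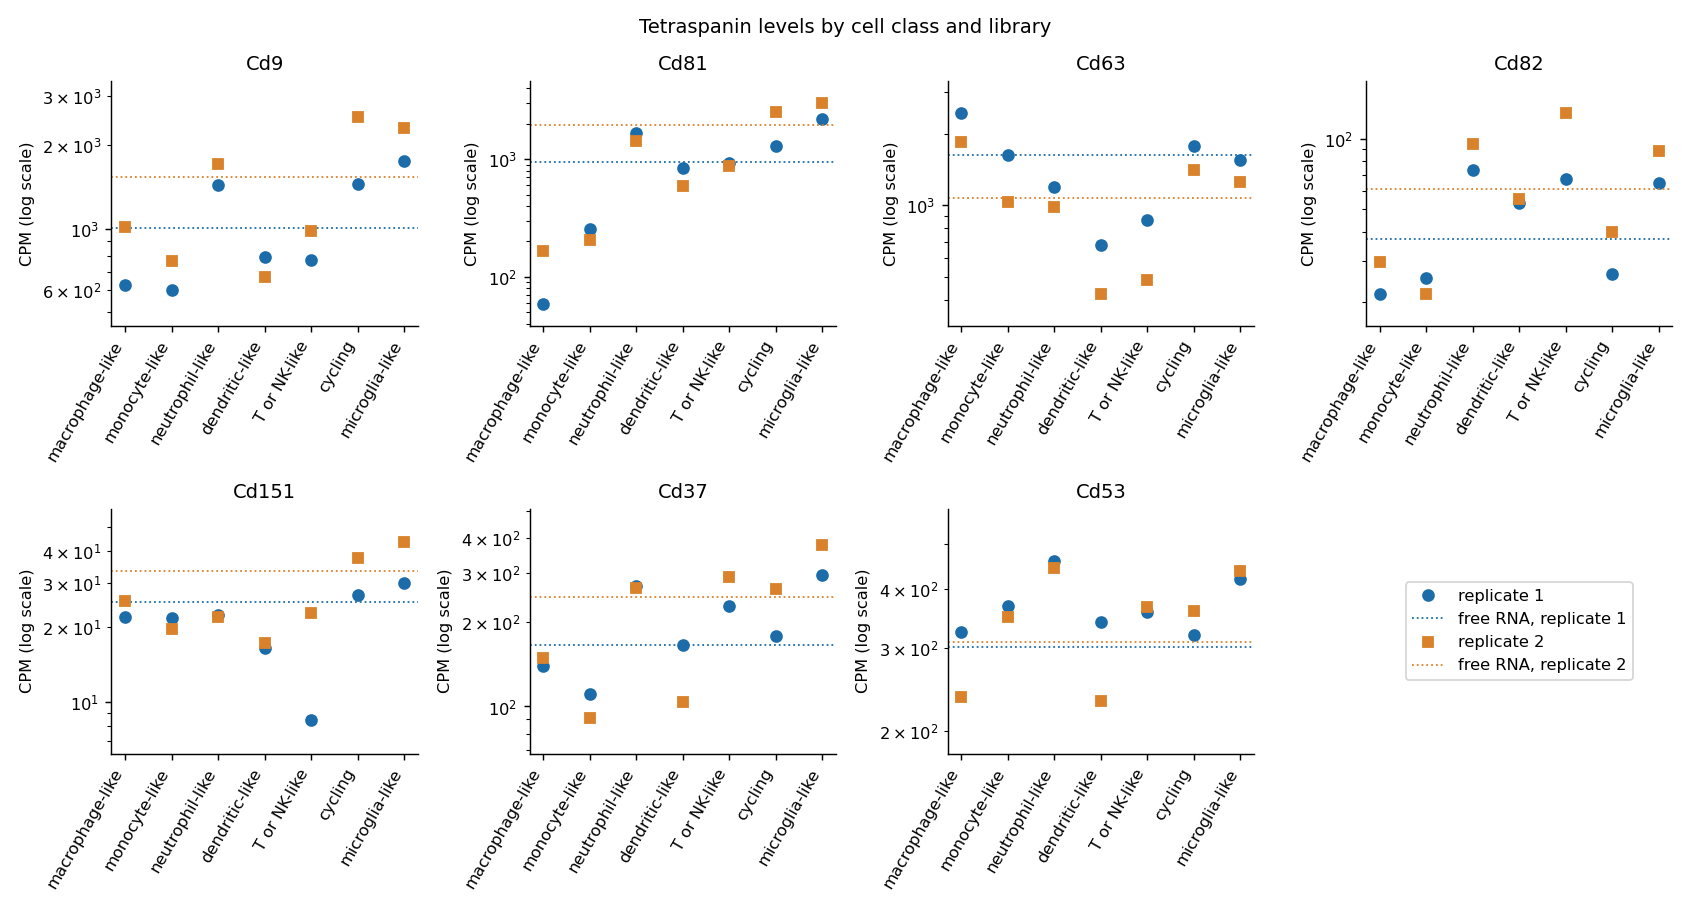
Levels of the 7 members in CPM (log axis) by cell class, with 1 point per library (circles replicate 1, squares replicate 2) and dotted lines at the level in free RNA. Cd81 spans from 58.4 CPM in macrophage-like cells to 3028 CPM in microglia-like cells, while Cd63 is highest in macrophage-like cells in both libraries.

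**Figure D2:**
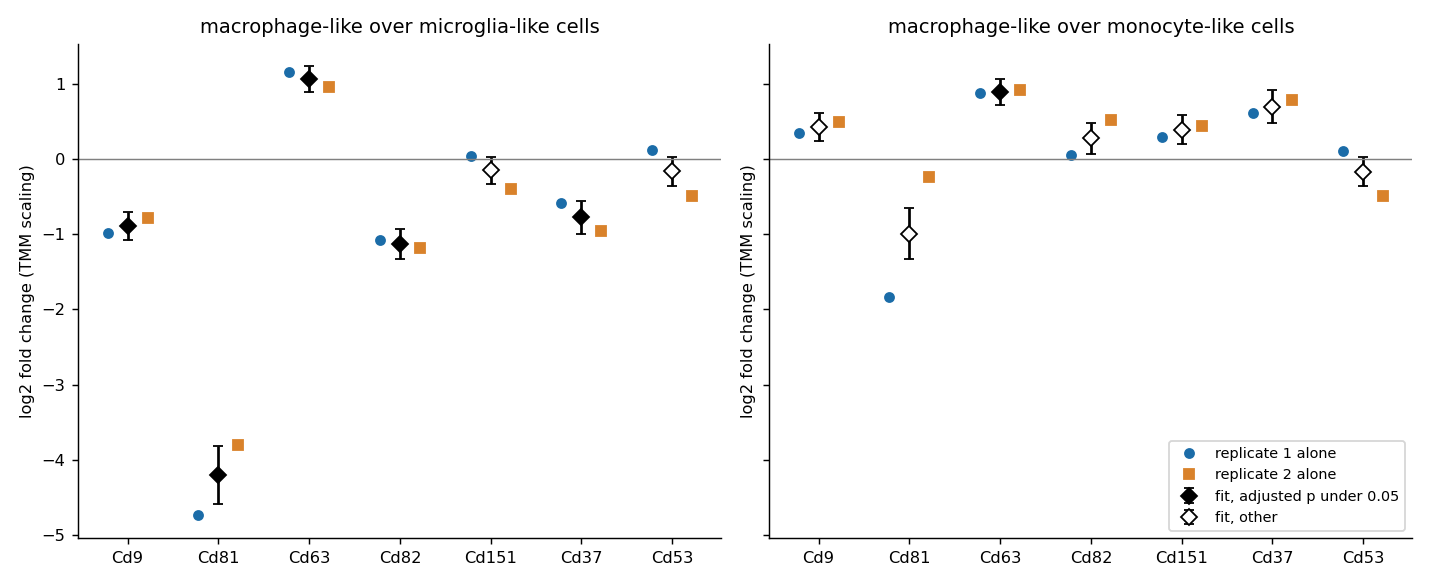
Log2 fold changes of the members in macrophage-like over microglia-like cells (left) and over monocyte-like cells (right). Diamonds are the fit over both libraries with its SE, filled where the adjusted p is under 0.05, and colored points are each library alone. Cd81 is near -4 and Cd63 near 1 on the left, and Cd63 alone is filled on the right.

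The difference in Cd81 was also present in the share of cells. After thinning each cell to 1000 UMIs, 5.66% (95% Wilson interval 4.93 to 6.49) of macrophage-like cells in replicate 1 and 12.6% (8.66 to 17.9) in replicate 2 held a Cd81 UMI, against 88.1% (87.2 to 88.9) and 93.2% (92.4 to 93.9) of microglia-like cells. Without thinning the shares were 23.1% and 48.2% in macrophage-like cells, at median depths of 7186 and 9953 UMIs, against 98.5% and 99.7% in microglia-like cells, at 3626.5 and 5156.5 UMIs. The intervals cover counting error only. No class here is known to lack Cd81, so no background share can be named. Free RNA held Cd81 at 949 and 1950.2 CPM, above the level in macrophage-like cells in each library.

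Microglial RNA in other classes can be set beside these values. The summed level of the 11 microglia markers in macrophage-like cells was 14.5% and 16.9% of that in microglia-like cells of the same library, with no marker at 0, and Cd81 there was at 2.65% and 5.46%. Cd9 was at 35.8% and 44.2% and Cd63 at 158% and 148%. In monocyte-like cells the markers were at 14.1% and 9.04% and Cd81 at 11.6% and 6.81%.

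In further classes the share of Cd81 was close to that of the microglia markers in at least 1 library. In cycling cells the markers were at 59.2% and 70.9% of the microglia-like level and Cd81 at 59.0% and 82.8%. In neutrophil-like cells the markers were at 79.9% and 46.3% of the microglia-like level and Cd81 at 76.4% and 46.9%. In dendritic-like cells the markers were at 42.5% and 18.9% and Cd81 at 37.9% and 19.5%. The T or NK-like cells had the markers at 44.4% and 21.9% and Cd81 at 41.8% and 28.7%. The part of microglial RNA in the Cd81 level of these classes was not tested.

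**Figure D3:**
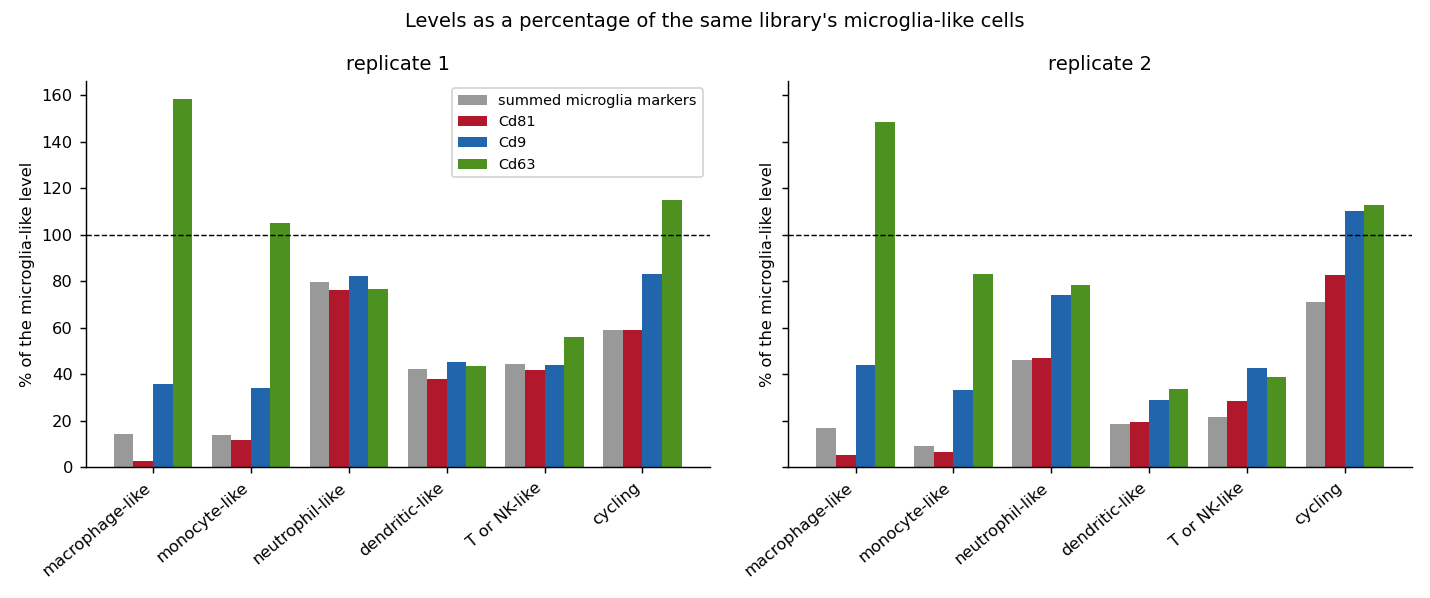
Summed microglia markers, Cd81, Cd9 and Cd63 in 6 classes, each as a percentage of the microglia-like level of the same library (dashed line at 100%). Cd81 lies below the microglia markers in macrophage-like cells (2.65% against 14.5% in replicate 1). It lies beside them in neutrophil-like and dendritic-like cells, and in cycling cells of replicate 1.

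Between macrophage-like and monocyte-like cells, Cd63 was the member that passed the test. It had 2455 and 1855 CPM in macrophage-like cells, against 1633 and 1037 CPM in monocyte-like cells, a log2 fold change of 0.89 ± 0.17 (adjusted p = 0.00731). Over all genes 4.39% were called higher, 4.25% lower and 8.64% were called in either direction. In each library the macrophage-like value was the higher one. The fit without the library block kept the fold change at 0.89 with an adjusted p of 0.168. Scaling to summed UMIs alone moved the median of all genes by -0.21 and gave 212 higher and 918 lower calls, against 448 and 434 with TMM.

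Cd81 had 58.4 and 165 CPM in macrophage-like cells, against 256 and 206 CPM in monocyte-like cells. Its log2 fold change was -0.99 ± 0.34 (adjusted p = 0.0954), with -1.84 in replicate 1 and -0.25 in replicate 2. Cd37, at 139 and 149 CPM in macrophage-like cells against 111 and 91.2 CPM in monocyte-like cells, did not pass (log2 fold change 0.69 ± 0.22, adjusted p = 0.0714). For Cd9, Cd53, Cd82 and Cd151 the adjusted p lay between 0.195 and 0.661.

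The monocyte-like class mixed Arg1 cells with Ly6c2 cells. At a finer resolution of 1.2, 59.4% of its main cluster joined the macrophage-like class and 40.4% stayed monocyte-like. Cd63 was then higher in macrophage-like cells by 1.28 on the log2 scale (adjusted p = 0.00158), Cd151 was higher by 0.84 (adjusted p = 0.0190), and Cd81 had a log2 fold change of -1.46 (adjusted p = 0.0271), with -2.51 and -0.35 in the 2 libraries. At that resolution 12.9% of genes were called in either direction.

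Monocyte-like cells also differed from microglia-like cells. Here 5 of 7 members were lower and none was higher (unadjusted p under 0.05 for 0 members in the higher direction, and 0 calls with DESeq2), where 23.2% of all genes were called lower, 22.5% higher and 45.7% either way. Cd81 had 256 and 206 CPM in monocyte-like cells, against 2201 and 3028 CPM in microglia-like cells (log2 fold change -3.21 ± 0.36, adjusted p = 1.67e-05). Cd37 was lower by a log2 fold change of -1.47 ± 0.22, Cd82 by -1.40 ± 0.20 and Cd9 by -1.31 ± 0.19, each with an adjusted p of 0.00016 or less. Cd151 was called with -0.54 ± 0.18 (adjusted p = 0.0269), and without the library block its adjusted p was 0.0668. Cd53 and Cd63 had log2 fold changes of 0.00 ± 0.19 and 0.16 ± 0.17. Scaling to summed UMIs alone moved the median of all genes by -0.26 and gave 1496 higher and 3435 lower calls, against 2297 and 2368 with TMM.

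Dendritic-like cells had 5 members lower than microglia-like cells, where 9.77% of all genes were called lower and 20.4% either way. Cd9 had 790.5 and 671 CPM in dendritic-like cells, against 1749 and 2303 CPM in microglia-like cells (log2 fold change -1.30 ± 0.19, adjusted p = 0.000554). Cd63 had 677 and 423 CPM in dendritic-like cells, against 1553 and 1249.7 CPM in microglia-like cells (log2 fold change -1.24 ± 0.17, adjusted p = 0.00042). Cd37, Cd151 and Cd81 were the other members called. Scaling to summed UMIs alone gave 806 higher and 1336 lower calls over all genes, against 1081 and 998 with TMM, and added Cd53 to the lower members (log2 fold change -0.60, adjusted p = 0.0398).

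T or NK-like cells had 4 members lower, Cd9, Cd63, Cd81 and Cd151, where 7.86% of all genes were called lower and 7.42% higher. The call of Cd63 was lost without the library block (adjusted p = 0.0638). Cd82 had 67.5 and 129 CPM in T or NK-like cells, against 64.9 and 88.3 CPM in microglia-like cells, and did not pass (log2 fold change 0.34 ± 0.23, adjusted p = 0.345). Cd81 UMIs sat in a minority of the T or NK-like cells: 40.1% and 16.5% of cells held any, with 7.65 and 23.9 UMIs per cell among those that did. Cycling cells had 1 member lower, Cd82, at 26.2 and 39.7 CPM in cycling cells, against 64.9 and 88.3 CPM in microglia-like cells (log2 fold change -1.21 ± 0.20, adjusted p = 0.000813, where 11.6% of all genes were called lower and 26% either way). The cycling class was mixed too: at resolution 1.2 it fell into cluster 12 (72.7% of its cells) and cluster 19 (26.7%), both still named cycling. Cluster 19 held 192 and 9 cells, with Cd81 at 140 and 260.4 CPM and Cd82 at 12.5 and 15.03 CPM, and cluster 12 held 412 and 198 cells, with Cd81 at 2031 and 2727 CPM and Cd82 at 34.7 and 42.5 CPM.

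Neutrophil-like cells had no member called against microglia-like cells by edgeR or DESeq2, with 1 member at an unadjusted p under 0.05 where 4.89% of all genes were called higher, 0.548% lower and 5.43% either way. With no filter on low counts, Cd81 and Cd151 were called lower. Cd53 had 459 and 445 CPM in neutrophil-like cells, against 422 and 437 CPM in microglia-like cells. The microglia markers at 79.9% and 46.3% in that class, given above, stand beside this comparison.

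Over all 21 pairs of the 7 classes, Cd63 was called in 16, Cd81 in 13, Cd9 and Cd82 in 12 each, Cd37 in 7 and Cd151 in 6. Between 3.41% and 45.7% of all genes tested were called in a pair, and the median gene was called in 4 pairs (quartiles 1 and 7). These genes leave out those used for clustering. Cd53 was called in none of the 21 pairs by edgeR, with an unadjusted p under 0.05 in 4, and 21.3% of all genes tested were likewise called in none. Ranked by mean level, Cd9, Cd37, Cd81 and Cd151 were highest in microglia-like cells, Cd63 in macrophage-like cells, Cd53 in neutrophil-like cells and Cd82 in T or NK-like cells. Among these 7 classes, the top class of 3 members changed with the setting. Cd9 was highest in cycling cells at resolution 0.4, with at least 2000 UMIs and 1000 genes per cell, and with doublets kept. Cd53 and Cd82 were highest in microglia-like cells under the last 2 of these settings. The classes themselves changed too. At resolution 0.4 the cycling class, led by Ch25h, held 1863 and 816 cells. With the stricter cells, a class named erythroid, in which all 11 microglia markers were detected, was left out of the ranking. It averaged 2384 CPM of Cd9, against 1942 CPM in cycling cells, and 2868 CPM of Cd81, against 2648 CPM in microglia-like cells. Unnamed cells were left out too, and with the stricter cells they averaged 2021 CPM of Cd9. They then held a cluster led by Ch25h (1092 and 409 cells) that matched microglia best. With doublets kept 3856 and 1620 cells were unnamed, and they averaged 1893 CPM of Cd9, against 1964 CPM in cycling cells. Most neighbours in these orders were not told apart, since 6 of 42 neighbouring pairs passed the test. Such steps were not counted for all genes. The orders rank CPM while the test uses TMM, so in some steps the fitted fold had the other sign. Examples were Cd9 in T or NK-like over macrophage-like cells (log2 fold change -0.32) and Cd53 in dendritic-like over macrophage-like cells (-0.30). The steps that passed were 3 for Cd63 (macrophage-like above cycling, monocyte-like above neutrophil-like, neutrophil-like above T or NK-like) and 1 each for Cd9 (neutrophil-like above T or NK-like), Cd81 (dendritic-like above monocyte-like) and Cd82 (dendritic-like above cycling).

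Within microglia-like cells Cd63 was called in 5 of 6 clusters, more than any other member. Between 2.94% and 51.2% of all genes tested were called in a cluster, in either direction. Calls per gene over the clusters were not counted for all genes. Clusters are named by number and leading genes. Cluster 5 was led by Ch25h, Cst7 and Igf1, genes known from reactive microglia, and cluster 0 by P2ry12 and Slc2a5, with P2ry12 a receptor of resting microglia. Cd63 had 2247 and 2142 CPM in cluster 5 and 795 and 805 CPM in cluster 0. These clusters differed in depth, with median UMIs per cell of 6095 and 12613.5 in cluster 5 and 1541 and 3780.5 in cluster 0. The part of depth in the differences between these clusters was not tested. Against the mean of the other 5 clusters, the log2 fold change of Cd63 was 1.19 ± 0.07 in cluster 5 (adjusted p = 1.00e-13, where 26.4% of 10080 genes were called higher and 51.2% either way) and -1.12 ± 0.08 in cluster 0 (adjusted p = 5.40e-11, where 18.3% were called lower and 35.6% either way).

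Cluster 8, led by Pik3ip1 and Fkbp5, had 1511 and 1584 CPM of Cd63 and was also higher (log2 fold change 0.49 ± 0.07, adjusted p = 6.02e-06, 14.9% of genes called higher and 25.9% either way). Cluster 1, led by Il1a and Egr1, had a Cd63 log2 fold change of -0.33 ± 0.07 (adjusted p = 0.0040, 5.6% of genes called lower). Cluster 3, led by heat shock genes, had -0.27 ± 0.07 (adjusted p = 0.0435, 1.32% called lower, 1.62% higher and 2.94% either way). The calls in clusters 1 and 3 were lost without the library block, and that in cluster 3 with DESeq2 too. Cluster 11, led by interferon-induced Ifit3 and Ifit2, had no member called by edgeR (3.21% of genes higher, 0.268% lower and 3.48% either way), and its Cd63 level was 1259.8 and 1259.0 CPM.

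Cd9 was higher in cluster 5 as well, at 2083 and 3336 CPM, with a log2 fold change of 0.82 ± 0.06 against the mean of the other clusters (adjusted p = 7.20e-11). It was lower in cluster 8 (-0.41 ± 0.07, adjusted p = 9.00e-05) and in cluster 0 (-0.32 ± 0.07, adjusted p = 0.000853), and in cluster 0 its value was 0.0062 when scaled to summed UMIs alone. Without the library block both lower calls of Cd9 were lost. Cd82 ran the other way: it had 39.9 and 40.6 CPM in cluster 5 and 116 and 115 CPM in cluster 0. Its log2 fold change was -0.86 ± 0.08 in cluster 5 (adjusted p = 2.34e-09, where 24.8% of genes were called lower) and 0.38 ± 0.08 in cluster 0 (adjusted p = 0.000357, where 17.3% were called higher).

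Cd81 and Cd53 were called in none of the 6 clusters by edgeR or DESeq2, with an unadjusted p under 0.05 in 2 clusters for Cd81 and in 0 for Cd53. The share of all genes called in none of the 6 clusters was not counted. Cd81 stood between 1862 and 2680 CPM in replicate 1 and between 2422 and 3419 CPM in replicate 2 over these clusters. Scaling to summed UMIs alone moved the median of all genes by 0.33 in cluster 0, -0.23 in cluster 5 and -0.14 in cluster 8. Under it Cd81 was called higher in clusters 0 and 3 and lower in clusters 5 and 8. Cd151 was called higher in cluster 5 (0.22 ± 0.08, adjusted p = 0.0258), a call lost with DESeq2 and turned to -0.0082 without TMM, and Cd37 was called lower in cluster 8 (-0.19 ± 0.07, adjusted p = 0.0433), a call lost with DESeq2. Both were also lost without the library block.

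**Figure D4:**
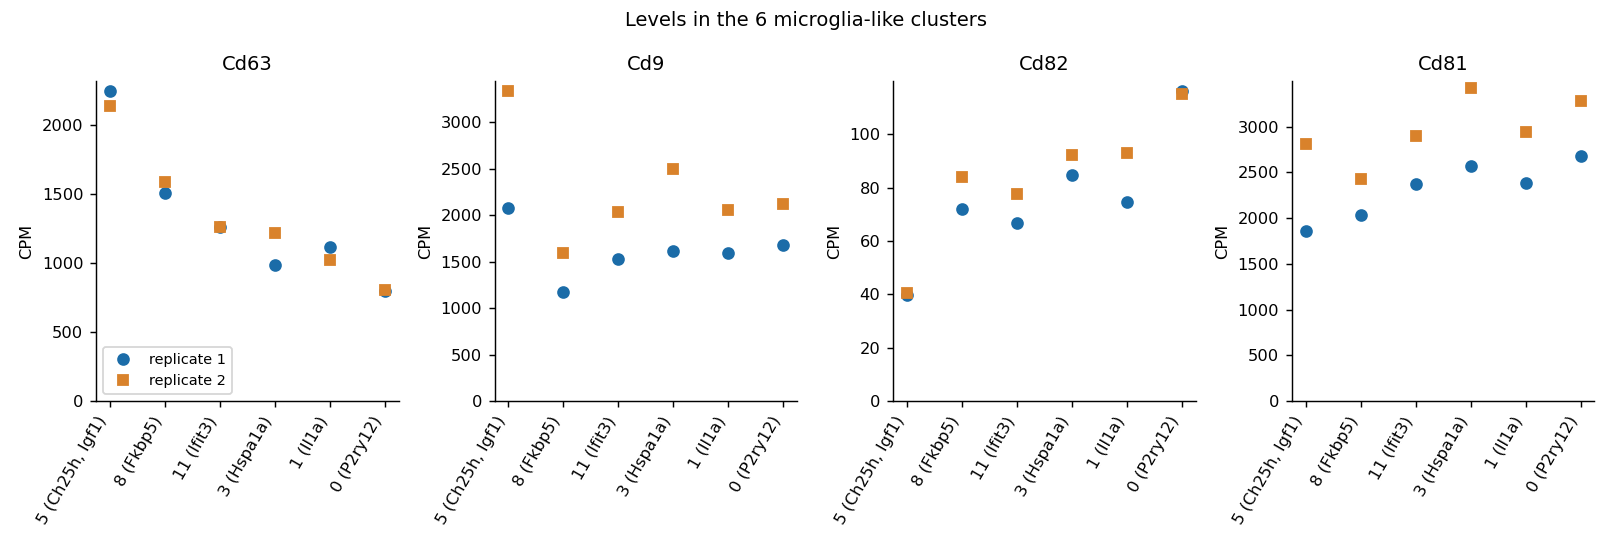
Levels in CPM of Cd63, Cd9, Cd82 and Cd81 in the 6 microglia-like clusters, with 1 point per library and the cluster number and leading genes on the axis. Cd63 is highest in cluster 5 (2247 and 2142 CPM) and lowest in cluster 0 (795 and 805 CPM), and Cd82 has its lowest values in cluster 5.

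The 2 macrophage-like and 2 monocyte-like clusters were compared in 1 fit of 9378 genes, added after the data were seen. Cluster 4, led by Gpnmb, Fabp4, Fabp5 and Spp1, genes of lipid-handling macrophages, held 2099 and 55 cells. Cd63 had 2639 and 2311 CPM in cluster 4, the highest of the 4 clusters in both libraries, and its log2 fold change against the mean of the others was 1.44 ± 0.11 (adjusted p = 1.40e-06, where 13.9% of genes were called higher). Cd81 had 41.7 and 87.0 CPM, the lowest of the 4 (log2 fold change -2.23 ± 0.30, adjusted p = 9.80e-05, where 9.14% were called lower). Cd9 (0.61 ± 0.14, adjusted p = 0.00408) and Cd151 (0.72 ± 0.24, adjusted p = 0.0402) were higher in cluster 4, and Cd82 was lower (-0.80 ± 0.18, adjusted p = 0.00479). The mean of the others includes cluster 17. Its values lay far from those of clusters 6 and 2 for Cd63, Cd81, Cd82 and Cd151. Cd63 averaged 2475 CPM in cluster 4, against 1771 CPM in cluster 6, 1370 CPM in cluster 2 and 531 CPM in cluster 17. Cd81 averaged 64.4 CPM in cluster 4, against 158 CPM in cluster 6, 199 CPM in cluster 2 and 1001 CPM in cluster 17. Cd151 averaged 22.9 CPM in cluster 4, against 22.2 CPM in cluster 6, 21.0 CPM in cluster 2 and 11.7 CPM in cluster 17, the last from 2 and 5 UMIs. Cd82 averaged 19.96 CPM in cluster 4, against 31.9 CPM in cluster 6, 19.7 CPM in cluster 2 and 105 CPM in cluster 17.

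Cluster 6, led by Fbxo32, Cxcr4 and Apoe, held 1276 and 144 cells. It was higher in Cd63 (0.83 ± 0.11, adjusted p = 0.000514) and in Cd37 (0.47 ± 0.14, adjusted p = 0.0475), where 5.08% of genes were called higher and 2.29% lower. Cluster 2, led by Arg1 and Cxcl3, was lower in Cd82 (-1.01 ± 0.17, adjusted p = 0.000928) and in Cd37 (-0.74 ± 0.14, adjusted p = 0.00259), where 4.4% were called lower and 7.81% higher. Both comparisons also use a mean that includes cluster 17. Cd63 averaged 1771 CPM in cluster 6, between cluster 4 (2475 CPM) and cluster 2 (1370 CPM), and 531 CPM in cluster 17. Cd82 averaged 19.7 CPM in cluster 2, close to the 19.96 CPM of cluster 4.

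Cluster 17, led by Ear2, Ace and Treml4, genes of patrolling monocytes, held 70 and 61 cells. Each cluster is set against a mean that includes the others, so the values of clusters 4 and 17 are not independent. Cd63 had 703 and 358 CPM (log2 fold change -2.32 ± 0.15, adjusted p = 3.95e-08, where 12.3% of genes were called lower). Cd82 had 98.7 and 112 CPM (1.72 ± 0.24, adjusted p = 7.60e-05) and Cd81 had 1327 and 676 CPM (2.58 ± 0.24, adjusted p = 2.39e-06), where 8.67% were called higher. Cd9 (-0.27 ± 0.15, adjusted p = 0.235) and Cd151 (-1.35 ± 0.48, adjusted p = 0.0571) did not pass. In that cluster the microglia markers were at 63.3% and 28.3% of the microglia-like level and Cd81 at 60.3% and 22.3%, and the part of microglial RNA in its Cd81 level was not tested.

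**Figure D5:**
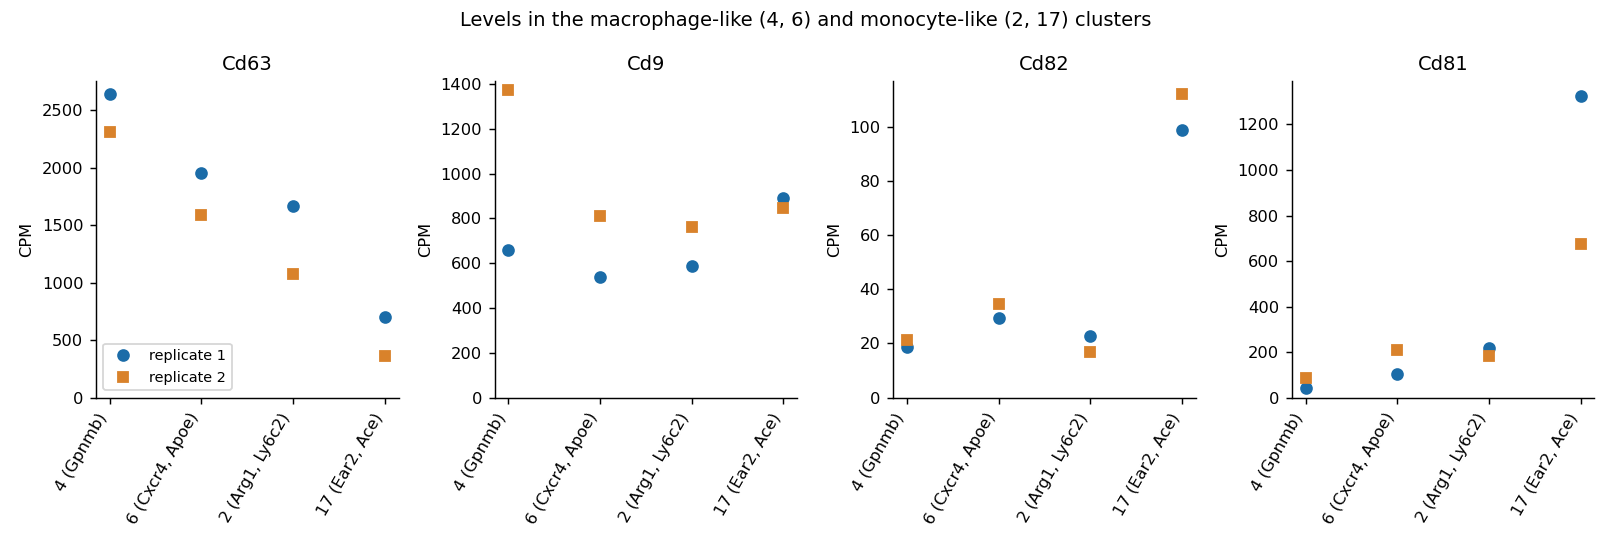
Levels in CPM of Cd63, Cd9, Cd82 and Cd81 in macrophage-like clusters 4 and 6 and monocyte-like clusters 2 and 17, with 1 point per library. Cd63 is highest in cluster 4 (2639 and 2311 CPM) and lowest in cluster 17 (703 and 358 CPM), and Cd82 and Cd81 are highest in cluster 17.

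Among 24 other tetraspanin genes, 15 had enough counts for the test. In macrophage-like against microglia-like cells 2 were higher and 8 lower, with a median log2 fold change of -0.98, where 20.9% of all genes were called higher and 19.3% lower. The higher ones were Tspan2 and Tspan17, and the lower ones Tspan3, Tspan7, Tspan9, Tspan13, Tspan14, Tspan18, Tspan33 and Upk1b, named after their values were seen. Tspan2 rests on 5 and 0 UMIs in macrophage-like cells, against 0 and 1 in microglia-like cells. Tspan4 was the one with a mean of at least 100 CPM in a named class. It had 128 and 85.4 CPM in macrophage-like cells, against 118 and 144 CPM in microglia-like cells, and did not pass (log2 fold change 0.12 ± 0.23, adjusted p = 0.715).

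Of 25 genes for known tetraspanin partners, 20 were tested, and 8 were higher and 2 lower in macrophage-like than in microglia-like cells (median log2 fold change 0.80), beside 20.9% higher and 19.3% lower over all genes. Cd36, a scavenger receptor, had 306 and 81.0 CPM in macrophage-like cells, against 10.1 and 1.27 CPM in microglia-like cells (log2 fold change 5.73 ± 0.60, adjusted p = 9.76e-06). Itga4, an integrin chain, had 24.9 and 37.4 CPM in macrophage-like cells, against 4.31 and 2.38 CPM in microglia-like cells (3.59 ± 0.39, adjusted p = 1.45e-05). Cd44, the hyaluronan receptor, had a log2 fold change of 3.50 ± 0.53, the class II gene H2-Aa 5.22 ± 0.51 and the protease inhibitor Timp1 4.70 ± 0.58. Ifitm3 (0.42 ± 0.45) and Ptprc, which encodes CD45 (-0.17 ± 0.19), did not pass.

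Of 15 endosome and exosome genes, 13 were tested, and 6 were higher and 1 lower (median 0.26), beside the same 20.9% and 19.3% over all genes. Sdcbp, which encodes the exosome adaptor syntenin, had 829 and 624 CPM in macrophage-like cells, against 390.3 and 305 CPM in microglia-like cells (log2 fold change 1.51 ± 0.24, adjusted p = 0.000263). The lysosomal genes Cd68 (1.15 ± 0.20, adjusted p = 0.000572) and Lamp1 (0.94 ± 0.21, adjusted p = 0.00309) and the late endosome GTPase gene Rab7 (1.16 ± 0.20, adjusted p = 0.000536) were higher. Rab27a, a GTPase of vesicle release, had 3.47 and 3.88 CPM in macrophage-like cells, against 19.5 and 18.3 CPM in microglia-like cells (-1.89 ± 0.25, adjusted p = 6.70e-05). Laptm5 (-0.43 ± 0.17) and Lamp2 (0.03 ± 0.17) did not pass.

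Of 10 macrophage fusion genes, all were tested, and 5 were higher and 0 lower by edgeR, with 0 lower at an unadjusted p under 0.05 (median 2.49), again beside 20.9% and 19.3% over all genes. Atp6v0d2, a proton pump subunit of fusing macrophages and osteoclasts, had 48.6 and 45.1 CPM in macrophage-like cells, against 1.02 and 0.095 CPM in microglia-like cells (log2 fold change 6.91 ± 0.50, adjusted p = 1.11e-06). Acp5, the osteoclast acid phosphatase, had 6.91 ± 0.69, and Cd47, the ligand of Sirpa, 0.79 ± 0.23. Mmp9, a protease, had 0.827 and 131 CPM in macrophage-like cells, against 0.95 and 0.127 CPM in microglia-like cells, so its difference rested on replicate 2 (log2 fold change 0.24 in replicate 1 and 8.78 in replicate 2). Ctsk, another protease, had 10.8 and 446 CPM in macrophage-like cells, against 0.402 and 0.317 CPM in microglia-like cells, higher in both libraries. Tyrobp (0.47 ± 0.20) and Trem2 (0.15 ± 0.22) did not pass.

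Genes whose levels ran most like a member's were found over 14 library-by-class sums, among 2418 genes with a mean of at least 50 CPM, by Pearson r of log2(CPM + 10). The sums share 2 libraries and 7 classes, so r is a description. Cd81 was most like Sparc (0.99), Gpr84 (0.99) and Gpr34 (0.99), and Cd9 most like Fcrls (0.93), Lair1 (0.92) and Olfml3 (0.92). Cd63 was most like Hebp1, Ctsb and Lamp1 (0.95, 0.95 and 0.94). Cd37 was most like Asap1 (0.95), Dip2b (0.92) and Rhoh (0.92), Cd82 most like Arhgap45 (0.96), Cirbp (0.95) and Ankrd44 (0.95), Cd53 most like Reep3 (0.89), Vps4b (0.83) and Cflar (0.83), and Cd151 most like Lap3 (0.88), Unc50 (0.87) and Emc3 (0.86). Among the members themselves r was 0.80 for Cd9 with Cd81 and -0.60 for Cd63 with Cd82.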

How the data were processed

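Per the file headers, the deposited matrices were written by Cell Ranger 4 and hold raw UMI counts per gene for every barcode of the Chromium kit. Seurat 4, Cell Ranger 4.0.0 and STAR 2.5.1b appear in the submitters' processing notes. No source used here states whether counting used strand, so reads of Cd9, Cd37, Cd81, Cd82 and Cd151 cannot be told apart from those of genes that overlap them.

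Barcodes were kept as cells from 1000 UMIs and 500 genes upward, with no more than 10% mitochondrial UMIs. Scrublet removed 1426 cells of replicate 1. In replicate 2 it marked 0 cells, so the 501 top-scoring cells were removed. Clustering left out the members and gene lists (2000 variable genes, 30 principal components, 15 neighbours, Leiden resolution 0.8). Clusters were named from 18 marker lists by a scoring rule written after the clusters were seen. Counts were summed per library and class and tested with edgeR 4.0.16 (TMM, filterByExpr, library as a block, 6 residual degrees of freedom, false discovery rate 0.05). The test was checked on simulated sums drawn independently, with no library effect. They had the same mean profile in every class apart from planted changes. That check does not cover shared libraries or classes that differ in many genes. Every comparison sets classes or clusters of the same 2 libraries against each other, hence the block. Deviations of same-library sums correlated between -0.02 and 0.63 over 21 pairs of classes. Named list genes were up to 5 with the largest called change and up to 2 not called with the highest level. The members and lists were chosen with earlier results of these data known. Clec7a and Hgs were not analysed here.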

Additional observations from a re-analysis of the deposited data

How the results depend on the processing

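Of 91 member fold changes, 88 kept their call with DESeq2, 82 without the replicate block and 84 with no filter on low counts. In these settings no fold called in either fit changed sign, and sign changes of folds called in neither were not counted. Leaving out either replicate turned the sign of no called fold change. The 182 values from this check include those of folds not called, which could not count as turned. For Cd81 in macrophage-like against microglia-like cells it gave -4.74 to -3.81, for Cd63 0.96 to 1.16. Against microglia-like cells, the 4 lower and 1 higher members of macrophage-like cells held in number under every alternative except scaling without TMM (6 lower). Scaling without TMM and leaving out cluster 4 were alternatives chosen after seeing the data. Counts over all genes were 888 higher and 4110 lower without TMM, 2989 lower with doublets kept and 1243 lower without cluster 4.

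Against monocyte-like cells the member counts were less stable, and the cause was not tested. Higher members numbered 0 without the replicate block, 2 with no filter, 2 at Leiden resolution 1.2, 2 with at least 2000 UMIs and 1000 genes per cell, and 4 with doublets kept (Cd9, Cd37, Cd63 and Cd151). Lower members numbered 1 with no filter, at resolution 1.2, with the stricter cells and with doublets kept. Higher and lower genes numbered 161 and 218 without the block, 212 and 918 without TMM, 909 and 958 with the stricter cells, 1194 and 1366 with doublets kept, and 796 were lower at resolution 1.2.

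Within microglia-like clusters, 9 member calls were higher and 11 lower without TMM, against 5 and 7, and 2 were lower without the replicate block. Without TMM the sign turned for Cd9 (0.0062) and Cd81 (0.23) in cluster 0 and for Cd81 (-0.22) and Cd151 (-0.0082) in cluster 5. The test within macrophage-like clusters could not be fitted, since 1 cluster had 100 cells in each library. Of 49 class levels, 19 moved by more than 1 SD with doublets kept and 14 with the stricter cells. T or NK-like Cd151 rests on 4 and 10 UMIs.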

Other observations

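Cluster 18, an unnamed cluster of 67 and 6 cells led by 1500015O10Rik, Mgp and Sfrp4, had Cd151 at 212 and 224 CPM, while Cd37 had 10.5 and 0 CPM and Cd53 had 31.4 and 14.9 CPM. Cluster 14, another unnamed cluster of 152 and 94 cells led by the matrix genes Apod, Col3a1 and Col1a1, had Cd151 at 70.9 and 95.5 CPM, Cd37 at 14.3 and 11.9 CPM and Cd53 at 52.3 and 33.0 CPM. For scale, microglia-like cells had Cd151 at 29.8 and 43.6 CPM, Cd37 at 295 and 378 CPM and Cd53 at 422 and 437 CPM. These clusters entered no test.

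Cluster 13, which held 241 and 19 cells, was too small in replicate 2 for the tests. It was named for border-associated macrophages with 1 leading marker and 6 of 9 markers detected. These markers summed to 3967 and 4734 CPM, against 4451 and 2083 CPM in monocyte-like cells, so the name is uncertain. The cycling markers summed to 803 and 1126 CPM, against 22.6 and 42.2 CPM in macrophage-like cells. Cd9 had 96.7 and 88.6 CPM in cluster 13, below its level in each of the 7 tested classes, and Cd81 had 148 and 213 CPM. The summed microglia markers were at 3.82% and 1.71% of the microglia-like level in it, and Cd9 at 5.53% and 3.85%.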
